A study of Mus musculus with 7 samples.

Results

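The collagen genes were examined in the terminal ileum of mice, where the small intestine meets the large. Members were the genes whose symbol reads Col, a number, a and a number. Each was measured by a probe set to which the platform annotation gives no other gene, the brightest on average where there were several. The rule found 42 genes among the 18193 genes on the array. Of these, 11 encode fibrillar collagens, 6 encode the type IV chains of the basement membrane and 25 encode other collagens. A mean above log2 4.588, the 25th percentile over all genes, was reached by 30 of the 42, and only these entered the tests, with 13644 genes in all.

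Collagens are the main structural proteins of the extracellular matrix, and each molecule is a triple helix wound from 3 chains. Fibrillar collagens are laid down by fibroblasts and smooth muscle cells and carry the tensile strength of the submucosa and muscle coat. Type IV chains form instead a flat mesh in the basement membrane, beneath the epithelium and around vessels, muscle cells and nerves. The remaining families link fibrils to each other, anchor cells or span the cell membrane.

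The samples were whole pieces of ileum from male C57BL6J mice, all 8 weeks old. All had been weaned onto chow at 4 weeks and moved at 6 weeks to a diet whose fat supplied 45% of the calories. The 3 control mice had been given no antibiotic, and the 4 mice of the low-dose penicillin group had been given the drug at 6.7 mg/L from birth. No litter or cage is named, so their part cannot be told apart from that of penicillin. The labels call the samples biological replicates, so p-values measure the spread between these mice, and the growth text speaks of livers where the tissue label says terminal ileum. Fabp6, a bile acid carrier of ileal enterocytes, was at log2 14.28 to 14.64 in the 7 arrays.

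Control replicate 3 stood apart. Car1, an enzyme abundant in the colon, was at 14.1 in that mouse. Its level was 10.82 in penicillin replicate 1 and 5.11 to 7.63 in the rest, lowest in penicillin replicate 3. Aqp8, a colonic water channel, was at 8.27 in control replicate 3 against 3.86 to 4.29 in the other 6. These were the 2 tested of 6 colon markers. The other 4, Hoxb13, Hoxd10, Hoxd12 and Hoxd13, lay under the filter. Arrays correlated with each other at r between 0.991 and 0.998 over probe sets, and their number limits the precision. Penicillin replicate 3 was the mouse with the lowest means of the fibrillar, the type IV and all other collagens. Among the smaller classes, that of the basement membrane zone was lowest in control replicate 1 (-0.17, against -0.15 in penicillin replicate 3). The short chain class was lowest in penicillin replicate 4 (-0.13, against -0.10). Differences without control replicate 3, or without both control replicate 3 and penicillin replicate 3, are given for the collagen classes. They are also given for many of the genes whose values moved.

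Promoter sequences were available from RefSeq (GRCm38.p6) for 33 of the 42 genes. Those of Col1a2, a chain of type I collagen, and of Col3a1, the chain of type III collagen, are shown because these genes had parallel levels across the mice. Each line holds the 250 bases before the annotated start, 5′ to 3′, with matches on either strand in capitals. The motifs searched were a CCAAT box, spelled so, a GC box, spelled GGGCGG, and a TATA box, spelled TATAAA.
Col1a2 (plus strand, chr6:4505368-4505617): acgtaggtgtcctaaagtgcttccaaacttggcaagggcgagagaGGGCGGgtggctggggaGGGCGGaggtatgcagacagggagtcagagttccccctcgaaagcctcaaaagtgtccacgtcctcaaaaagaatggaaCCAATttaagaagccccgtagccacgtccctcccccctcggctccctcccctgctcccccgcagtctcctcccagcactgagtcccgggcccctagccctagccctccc
Col3a1 (plus strand, chr1:45311288-45311537): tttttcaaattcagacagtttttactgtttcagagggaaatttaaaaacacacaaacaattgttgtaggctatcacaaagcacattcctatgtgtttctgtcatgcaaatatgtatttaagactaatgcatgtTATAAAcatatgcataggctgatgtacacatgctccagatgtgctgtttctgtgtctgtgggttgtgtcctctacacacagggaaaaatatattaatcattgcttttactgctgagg
The Col1a2 stretch held a CCAAT box at position -109 and a GC box at -205 and -188, counted from the start, and the Col3a1 stretch held a TATA box at -117. Over the full 300-base windows, which add 50 bases after the start, the GC box on either strand was present in 61.1% of 36 collagen windows and in 35.7% of all 32851 windows. The CCAAT box was present in 36.1% of collagen windows against 37.4% of all windows, and the TATA box in 13.9% against 13.6%. No match overlapped another in the stretches shown, and a match describes the sequence only. Several members lie side by side in the genome of the same RefSeq table: Col3a1 with Col5a2, Col4a1 with Col4a2, Col4a3 with Col4a4, Col4a5 with Col4a6 and Col6a1 with Col6a2. Col4a1 and Col4a2 run head to head, and their promoter windows share 78 bases.

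The question was whether fibrillar, basement membrane and other collagens differ between control and penicillin mice. No collagen gene was called. The 30 tested differences, penicillin minus control, lay between -0.21 for Col4a1 and 0.17 for Col5a3 on the log2 scale, with a median of -0.01, the same as over all 13644 genes. In limma, with Benjamini-Hochberg adjustment over all genes tested, 0 of 30 had an adjusted p under 0.05, where 0.0953% of all genes did (0.088% lower and 0.00733% higher with penicillin), and the lowest adjusted p of a collagen was 0.488. At an unadjusted p under 0.05 there were also 0 of 30, where 10.7% of all genes were below it. The control and penicillin values overlapped for each of the 30, whereas the groups did not overlap for 10.3% of all genes. These are levels in whole tissue, where fewer cells of a type and less RNA per cell cannot be told apart.

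The 95% confidence intervals bound how large a difference could have gone unseen. For 27 of the 30 genes the interval lay within 1.5-fold in either direction. The 3 wider intervals were those of Col5a3, from -0.41 to 0.75, Col4a5, from -0.52 to 0.63, and Col14a1, from -0.60 to 0.33.

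**Figure D1:**
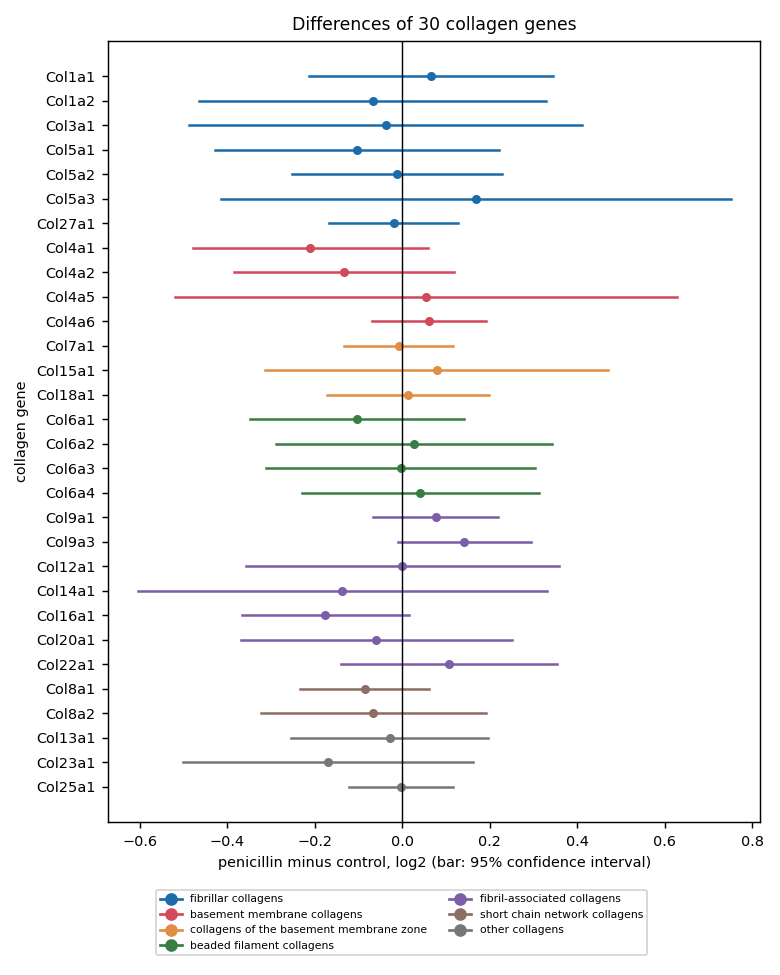
Difference between penicillin and control mice for the 30 tested collagen genes (x axis, log2; y axis, genes coloured by class), with points for the limma estimate and bars for its 95% confidence interval. Every interval includes 0, and the estimates lie between -0.21 and 0.17.

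Fibrillar collagens had a median difference of -0.02 over the 7 tested genes, 5 with lower and 2 with higher values in penicillin mice. Col1a2 was at 11.30, 11.30 and 11.64 in the control mice and at 11.58, 11.44, 10.90 and 11.46 in the penicillin mice. Col3a1 was at 11.74, 11.86 and 12.18 in control mice and at 12.16, 12.02, 11.38 and 11.99 in penicillin mice. For both genes 3 penicillin mice lay inside the control range, and penicillin replicate 3 lay below every other mouse. The difference was -0.07 (95% interval -0.46 to 0.33) for Col1a2 and -0.04 (-0.49 to 0.41) for Col3a1, with limma adjusted p of 0.886 and 0.944.

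Col1a1, the partner chain of Col1a2 in type I collagen, was at 7.08, 6.91 and 7.18 in control mice and at 7.35, 7.09, 6.86 and 7.19 in penicillin mice. Here too penicillin replicate 3 was lowest, and penicillin replicate 1 was highest. The difference was 0.07 (95% interval -0.21 to 0.34; limma adjusted p = 0.837).

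Type V collagen, which is built into type I fibrils and limits their width, was measured through 3 chains. Col5a1 went from 7.81 ± 0.160 (SD, n = 3) to 7.70 ± 0.244 (SD, n = 4), and Col5a2, the neighbour of Col3a1, from 8.73 ± 0.170 to 8.72 ± 0.138. Col5a3 had the largest SD within groups of the tested members, 0.399, and was at 5.71, 5.55 and 6.48 in control mice and at 6.11, 5.73, 5.99 and 6.50 in penicillin mice. Its high values were those of control replicate 3 and penicillin replicate 4, so the high mice came from both groups. Col27a1, a fibrillar collagen known from cartilage, differed by -0.02, with a range of only 0.23 over the 7 mice. The other fibrillar genes, Col2a1, Col11a1, Col11a2 and Col24a1, lay at or under the filter.

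**Figure D2:**
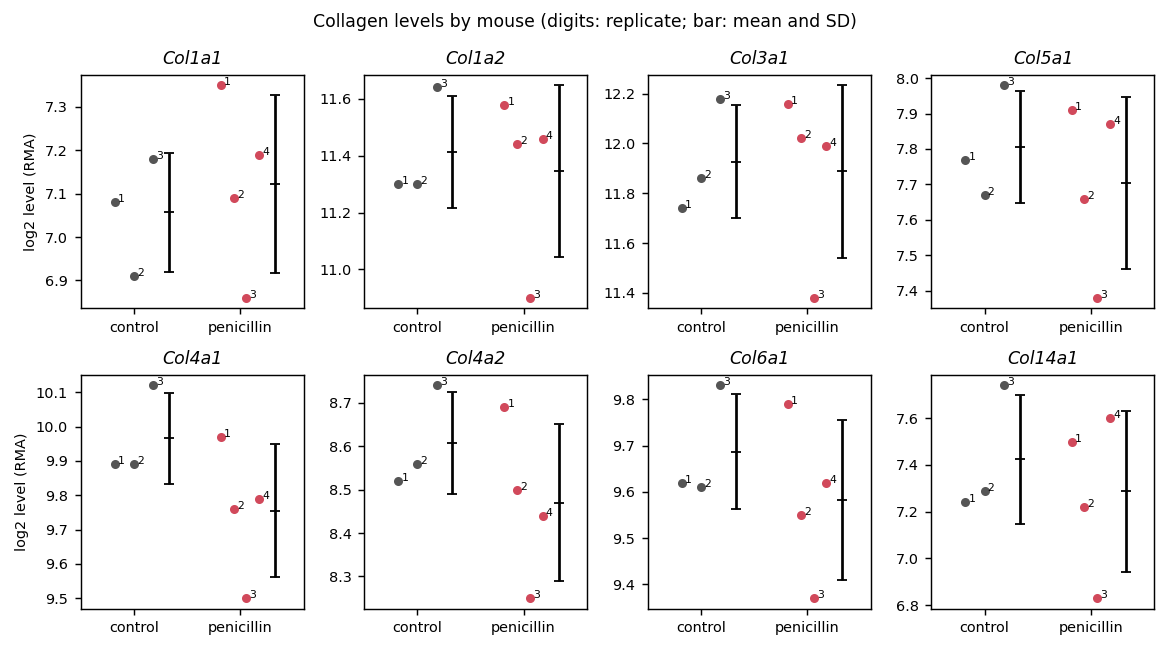
Log2 level (y axis) of 8 collagen genes in the 3 control mice (grey) and the 4 penicillin mice (red), each point labelled with its replicate number, with the mean and SD beside each group. Penicillin replicate 3 is the lowest of the 7 mice in all 8 panels, and control replicate 3 is the highest in 7 of them. Over all 30 tested collagens these counts are 20 and 9, so the 8 panels do not represent the family.

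Among the type IV chains, Col4a1 and Col4a2, which assemble together into the network found in most basement membranes, both had lower means with penicillin. Col4a1 was at 9.89, 9.89 and 10.12 in control mice and at 9.97, 9.76, 9.50 and 9.79 in penicillin mice. Apart from penicillin replicate 1, the penicillin mice lay below all control mice, so the groups overlapped through a single animal. The difference of -0.21 (95% interval -0.48 to 0.06) was the largest of the 30 in size and did not pass limma (adjusted p = 0.529).

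Col4a2 was at 8.52, 8.56 and 8.74 in control mice and at 8.69, 8.50, 8.25 and 8.44 in penicillin mice, in the same order of penicillin mice but for replicates 2 and 4. Its difference was -0.13 (95% interval -0.38 to 0.12; limma adjusted p = 0.635). Both probe sets of Col4a1 above the filter had lower means, by -0.21 and -0.08. Without penicillin replicate 1 the Col4a1 difference was -0.28, with an unadjusted p of 0.0361 and an adjusted p of 0.51 in limma. With both replicates 3 left out it was -0.05, and that of Col4a2 was 0.01.

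Col4a5 and Col4a6 encode chains of a separate type IV network. Col4a5 was at 6.89, 6.41 and 6.91 in control mice and at 6.89, 7.10, 6.13 and 7.04 in penicillin mice. Its range over the 7 mice was 0.98, or 1.97-fold, and the group means differed by 0.05. With both replicates 3 left out the difference was 0.36 (95% interval -0.02 to 0.75; limma adjusted p = 0.502). Col4a6 differed by 0.06, at 5.10 ± 0.0267 in control mice (SD, n = 3) and 5.16 ± 0.0711 in penicillin mice (SD, n = 4). Col4a3 and Col4a4, best known from the kidney glomerulus, were under the filter. The median of the 4 tested type IV chains was -0.04.

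The fibrillar and type IV classes did not separate from each other by treatment. The mean of each class was taken per mouse, relative to the 7-mouse mean of each gene, and the type IV value was subtracted from the fibrillar value. The result was -0.12, -0.04 and 0.06 in control mice and 0.05, -0.09, 0.05 and 0.08 in penicillin mice. The groups overlapped, with means of -0.03 and 0.02.

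For single genes the same comparison gave a somewhat wider gap. Col3a1 minus Col4a1, relative to its mean over all mice, was -0.21, -0.09 and 0.00 in control mice. In penicillin mice it was 0.13, 0.21, -0.18 and 0.14. Thus 3 penicillin mice lay above all control mice and penicillin replicate 3 lay among them. Chains of a shared trimer differed in how closely their measured levels ran together. Col4a1 minus Col4a2 lay between -0.07 and 0.06 and Col6a1 minus Col6a2 between -0.11 and 0.19. Col1a1 minus Col1a2 lay between -0.18 and 0.24. The probe sets of these genes had unlike mean levels, 7.10 and 11.37, and the part of the probe sets in this spread was not tested.

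Collagens of the basement membrane zone lie next to the type IV mesh. Col15a1 and Col18a1, whose C-terminal fragments are known as inhibitors of vessel growth, differed by 0.08 (95% interval -0.31 to 0.47) and 0.01 (-0.17 to 0.20). Col15a1 was at 5.50, 6.01 and 6.12 in control mice and at 6.19, 5.92, 5.70 and 6.01 in penicillin mice, with control replicate 1 lowest. Col7a1, the anchoring fibril collagen of stratified epithelia, differed by -0.01. Col17a1, a hemidesmosome protein of skin, lay under the filter at a mean of 3.35.

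Type VI collagen forms beaded filaments around cells. Col6a1 was at 9.62, 9.61 and 9.83 in control mice and at 9.79, 9.55, 9.37 and 9.62 in penicillin mice, and differed by -0.10 (95% interval -0.35 to 0.14). Col6a2 and Col6a3, its partner chains, differed by 0.03 and by less than 0.01 in size. All 3 were lowest in penicillin replicate 3, where Col6a2 stood at 9.80 and Col6a3 at 9.09. Col6a4 departed from this order: it was highest in penicillin replicate 2, at 8.09 against 7.60 to 7.77 in the other 6 mice, and differed by 0.04. Col6a5 lay under the filter.

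Fibril-associated collagens bind to the surface of fibrils and held the lowest p-values of the family. Col9a3, known as a chain of the type IX collagen of cartilage, was at 5.11, 5.26 and 5.11 in control mice and at 5.28, 5.26, 5.41 and 5.26 in penicillin mice. Each penicillin mouse was at or above the highest control mouse at 2 decimals, and the means differed by 0.14 (95% interval -0.01 to 0.29, limma adjusted p = 0.488). Further probe sets of Col9a3, under the filter at means of 3.34 and 3.06, differed by -0.08 and 0.01. Col16a1 was at 7.04, 7.16 and 7.09 in control mice and at 7.0, 7.04, 6.73 and 6.90 in penicillin mice, and the means differed by -0.18 (95% interval -0.37 to 0.02; limma adjusted p = 0.495).

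Col14a1, a fibril-associated collagen of fibroblasts, was at 7.24, 7.29 and 7.74 in control mice and at 7.5, 7.22, 6.83 and 7.60 in penicillin mice. The highest and the lowest of these were again control replicate 3 and penicillin replicate 3, and the group means differed by -0.14. Col12a1 differed by less than 0.01 in size, with both group means at 6.71. Col9a1 differed by 0.08, Col22a1 by 0.11 and Col20a1 by -0.06. Col9a2 and Col19a1 were under the filter. The median of the 7 tested members of this class was below 0.01 in size.

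Of the short chain collagens, Col8a1 and Col8a2, known from Descemet's membrane of the eye, differed by -0.09 and -0.07, and Col10a1 was under the filter. The membrane-spanning collagens Col13a1, Col23a1 and Col25a1 differed by -0.03, -0.17 and by less than 0.01 in size. Col23a1 was at 6.90, 6.46 and 6.77 in control mice and at 6.38, 6.58, 6.37 and 6.83 in penicillin mice, so high and low values occurred in both groups. Col26a1 was under the filter. Over all 19 tested collagens outside the fibrillar and type IV classes, 12 had lower and 7 had higher values, with differences from -0.18 to 0.14.

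The 12 genes under the filter had means between 3.09 and 4.57 and differences between -0.10 and 0.19. The method used by the authors gives no detection call, so these values cannot be told from background. Among them Col11a2 was at 4.22, 4.12 and 4.18 in control mice and at 4.44, 4.32, 4.34 and 4.28 in penicillin mice, without overlap. With no filter on low values it differed by 0.17, with an unadjusted p of 0.0186 and an adjusted p of 0.466 in limma. No probe set names Col6a6 or Col28a1 alone, and these genes are not analysed here.

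The tested collagens varied among mice of the same group. The SD within groups had a median of 0.169 for them, against 0.107 for all genes tested, and was above that all-gene median for 23 of the 30. The lowest of the 7 mice was penicillin replicate 3 for 20 of the 30 genes (66.7%), where it was lowest for 20.6% of all genes tested. Control replicate 3 and penicillin replicate 1 were lowest for 0 of 30 each, against 21.6% and 12.0% of all genes. The highest mouse was control replicate 3 for 9 genes and penicillin replicate 1 for 7, or 30% and 23.3%, against 30.3% and 9.15% of all genes.

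**Figure D3:**
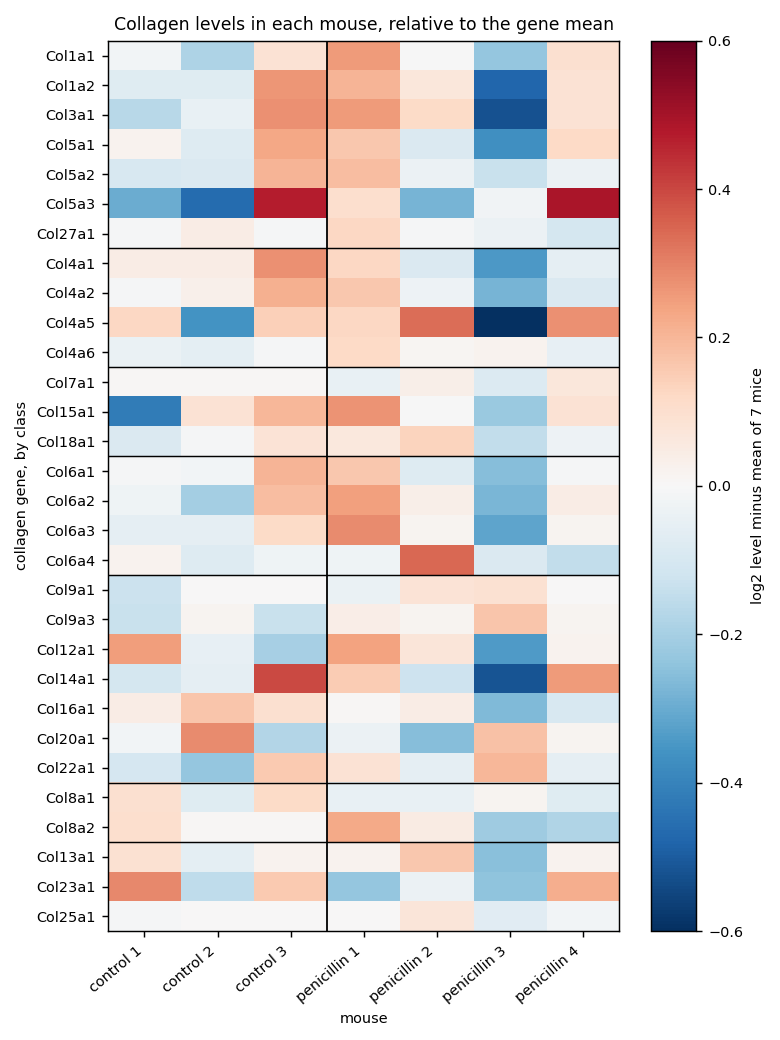
Log2 level of the 30 tested collagen genes (rows, grouped by class) in each mouse (columns, control left and penicillin right of the line), as the difference from the gene's mean over 7 mice. The column of penicillin replicate 3 is blue, that is low, for most genes and is the lowest for 20 of 30.

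These mouse-to-mouse differences ran through several classes. The mean of the 7 fibrillar genes, relative to the 7-mouse mean, was -0.09, -0.13 and 0.22 in control mice and 0.18, -0.03, -0.26 and 0.10 in penicillin mice. For the 4 type IV chains the values were 0.03, -0.09 and 0.16 in control mice and 0.13, 0.06, -0.31 and 0.02 in penicillin mice. In both classes the high mice were control replicate 3 and penicillin replicate 1, and the low mouse was penicillin replicate 3.

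Markers of stromal cells moved with the collagens in part. The 10 fibroblast markers, all tested, had a mean between -0.08 and 0.37 in control mice, highest in control replicate 3. In penicillin mice it lay between -0.35 and 0.16, lowest in penicillin replicate 3. Of the 10, 7 were highest in control replicate 3 and 6 were lowest in penicillin replicate 3. Dpep1 ran the other way, lowest in control replicate 3 at 11.82 and highest in penicillin replicate 3 at 13.0. The 9 tested of 10 endothelial markers ran from -0.01 to 0.26 in control mice and from -0.29 to 0.00 in penicillin mice, with the same mice at the extremes. The 10 smooth muscle markers had another order, highest in control replicate 1 at 0.26 and lowest in penicillin replicate 4 at -0.37, with penicillin replicate 3 at -0.03. The 6 pericyte markers ran from -0.15 to 0.18 in control and from -0.14 to 0.22 in penicillin mice.

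Of the 7 adipocyte markers, 5 were tested, and their mean was 0.96 in control replicate 3 against -0.60 to 0.21 in the other 6 mice. The 6 tested of 9 markers of enteric neurons and glia ran from -0.13 to 0.28 in control and from -0.17 to 0.02 in penicillin mice. The 10 epithelial markers lay between -0.11 and 0.00 in control mice, lowest in control replicate 3, and between 0.01 and 0.04 in penicillin mice. None of these marker genes had an adjusted p under 0.05 in limma, and the part of these cells in the collagen levels was not tested.

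**Figure D4:**
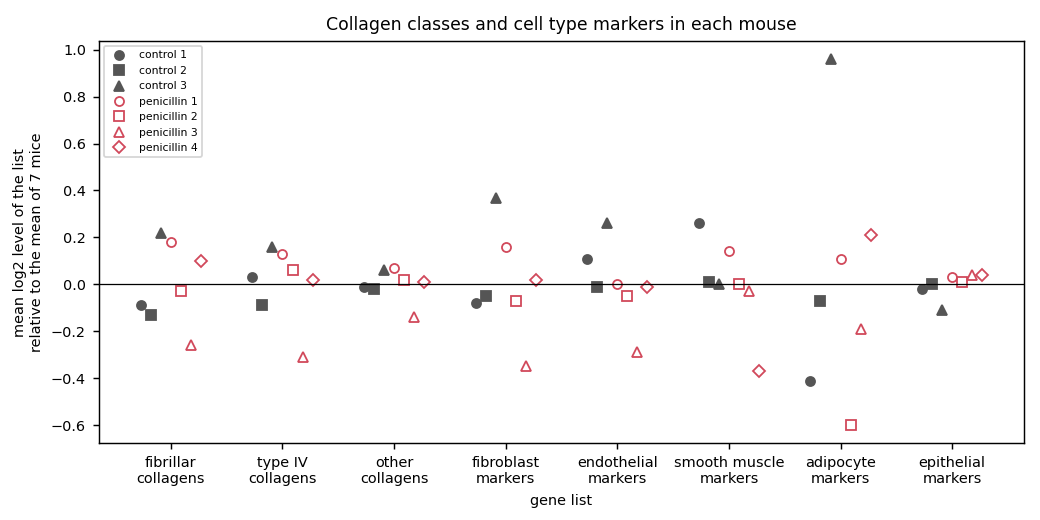
Mean log2 level of the 3 collagen classes and 5 lists of cell type markers (x axis) in each mouse, relative to the mean of the 7 mice (y axis), with filled grey symbols for control and open red symbols for penicillin. Penicillin replicate 3 (open triangle) is lowest in all 3 collagen classes and in the fibroblast and endothelial markers, whereas penicillin replicate 4 is lowest in the smooth muscle markers.

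With both replicates 3 left out, that is control and penicillin, the direction of many collagens turned. Higher values in penicillin mice were then seen for 23 of the 30 genes, where it had been 11 of 30, and the fibrillar median was 0.20 in place of -0.02. Over all genes tested 6761 of 13644 were then higher, with a median of -0.001. Col3a1 differed by 0.26 (95% interval 0.07 to 0.45) and Col1a2 by 0.20 (0.03 to 0.36), with unadjusted p of 0.0157 and 0.0255 and adjusted p of 0.337 and 0.394 in limma. Leaving out the mouse with the lowest and a mouse with high collagen levels raises such a difference by construction. Penicillin replicate 1, the other mouse with high fibrillar and type IV means, stayed in. Differences without both mice were also 0.48 in place of 0.17 for Col5a3, 0.17 in place of -0.14 for Col14a1, 0.08 in place of 0.14 for Col9a3 and -0.08 in place of -0.17 for Col23a1. No collagen was called in that fit.

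**Figure D5:**
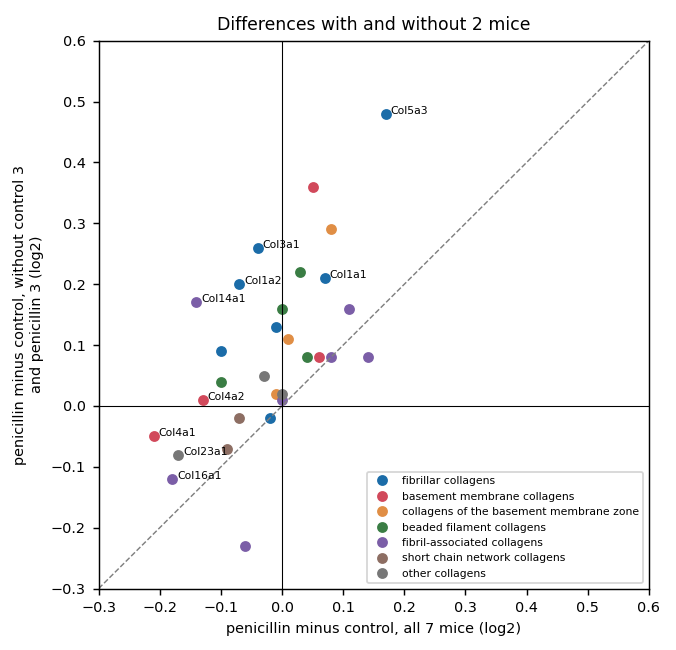
Difference between penicillin and control mice in log2 for the 30 tested collagen genes, over all 7 mice (x axis) and without control replicate 3 and penicillin replicate 3 (y axis), coloured by class, with the line of equal values dashed. Most points lie above the line, and 23 of 30 are above 0 on the y axis.

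Genes that make, process and bind collagen were read from 7 lists with 104 members, of which 87 were tested. None was called in limma. At an unadjusted p under 0.05 there were 3 lower and 4 higher, where 6.35% and 4.37% of all genes were. The groups did not overlap for 1 lower and 5 higher gene of the 87, where 6.05% and 4.29% of all genes did not.

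Chain hydroxylation, glycosylation and folding take place in the endoplasmic reticulum before chains can be secreted. The 18 tested of 20 genes had a median difference of 0.00, 8 with lower and 10 with higher values. Mia2, a factor of the exit sites for bulky cargo, went from 4.48 ± 0.187 (SD, n = 3) to 5.0 ± 0.130 (SD, n = 4), without overlap of the groups. The control mean lay under the filter of log2 4.588, so the gene passed only through its higher penicillin values. Control levels this low cannot be told from background, which limits what the missing overlap means. The Mia2 difference of 0.51 ± 0.105 (SE) had a limma adjusted p of 0.170. P4ha1, the catalytic subunit of prolyl hydroxylase, differed by -0.18 ± 0.0667 (SE, limma adjusted p = 0.423), and P3h2, which hydroxylates proline in type IV chains, by -0.21 ± 0.108 (SE, limma adjusted p = 0.516).

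Procollagen is then trimmed and crosslinked outside the cell. Bmp1, the protease that removes the C-propeptide, differed by 0.49 ± 0.161 (SE, limma adjusted p = 0.395), and Loxl4, a crosslinking oxidase, by 0.13. Pcolce2, an enhancer of Bmp1, differed by -0.41 with an SE of 0.295. Without control replicate 3 these differences were 0.33, 0.07 and -0.08, and without both replicates 3 they were 0.24, 0.07 and 0.09. The median over the 7 tested of 13 genes was -0.08, with 5 lower and 2 higher.

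Proteins that coat or bind fibrils had a median of -0.17 (-0.165 to 3 decimals). Of 15 tested genes, 14 had lower values, where 7467 of all 13644 genes did. Control replicate 3 was highest for 10 of the 15 (66.7%, against 30.3% of all genes). Penicillin replicate 3 was lowest for 9 (60%, against 20.6%). Fn1, fibronectin, went from 9.67 ± 0.0750 (SD, n = 3) to 9.34 ± 0.174 (SD, n = 4), without overlap (limma adjusted p = 0.341). The margin was narrow, with the lowest control mouse at 9.61 and penicillin replicate 1 at 9.60. Tnxb, a fibril spacer, differed by -0.29 (-0.18 without both replicates 3) and Fbln1, a matrix glycoprotein, by 0.14. The mean over the list was highest in control replicate 3 at 0.31 and lowest in penicillin replicate 3 at -0.30, the same mice as in the fibrillar collagens.

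Partners of type IV collagen in the basement membrane had a median of -0.03 over 14 tested of 16 genes. The heparan sulfate proteoglycans Agrn and Hspg2 differed by 0.25 ± 0.0973 and 0.20 ± 0.0825 (SE), with limma adjusted p of 0.440 and 0.447, in the direction opposite to Col4a1. Lamb3, a laminin chain of epithelia, differed by 0.54 ± 0.243 (SE, limma adjusted p = 0.483), and the groups did not overlap for Agrn and Lamb3. For Agrn the highest control mouse was at 9.26 and the lowest penicillin mouse at 9.28. Lamb3 was at 9.26, 9.26 and 8.24 in control mice, low only in control replicate 3, and at 9.33 to 9.66 in penicillin mice. Without control replicate 3 the difference was 0.20 for Lamb3 and 0.13 for Agrn. Among the collagen receptors Itga2, an integrin chain, was higher by a mean of 0.12 without overlap. Its highest control mouse was at 6.70 and its lowest penicillin mouse at 6.71. Itgb1 and Ddr2 differed by -0.11 and -0.22 (-0.11 for Ddr2 without both replicates 3). The limma adjusted p of these receptors lay between 0.494 and 0.530.

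Genes of collagen breakdown had a median of -0.07 over 12 tested of 14. The inhibitors Timp3 and Timp2 differed by -0.27 and -0.24 and Mmp14, a membrane-bound collagenase, by -0.14. The TGF-beta list, whose pathway is known to drive collagen transcription, had a median of -0.03 over 14 tested of 16, with Tgfbr3 at -0.32, Ltbp3 at -0.28 and Smad2 at 0.14. Without control replicate 3 the differences were -0.16 for Timp3, -0.06 for Timp2, -0.06 for Mmp14, -0.13 for Tgfbr3 and -0.09 for Ltbp3, and without both replicates 3 they were -0.09, 0.03, -0.02, -0.05 and 0.02. The adjusted p over all 7 mice of these 6 genes in limma lay between 0.516 and 0.580.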

How the data were processed

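Total RNA of the terminal ileum was purified with the RNeasy Mini Kit and hybridised to Affymetrix arrays, per the labels' protocols, with 1 array for each of 3 control and 4 penicillin mice. The deposited values are log2 expression per probe set, which the authors made with RMA in affy according to the submitters' processing notes. RMA corrects background, equalises the arrays and summarises probes. No tool version or genome build is stated there.

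Genes were named from the platform annotation and a RefSeq table, from 34945 probe sets naming 1 gene. Groups were compared over 13644 genes with limma 3.58.1 in R 4.3.3 (lmFit, eBayes, two-sided), with Benjamini-Hochberg adjustment and a threshold of 0.05. The fit was tested on simulated data. Alternatives were other scalings, filters, probe set rules and variance models, a replicate block and arrays left out. Plots were made in matplotlib 3.10.9.

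The members, classes and gene lists were chosen with earlier results of these data known. The rule named 15 collagens whatever their values, the 3 members of each class with the largest moderated t statistic in size, collagens under the filter, and up to 3 genes of each pathway list by the same statistic. Col4a5, Col20a1, Col22a1 and Col27a1 fall outside it and were named after their values were seen.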

Additional observations from a re-analysis of the deposited data

Results flagged for a closer look

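Col9a3 in penicillin replicate 3 lay apart from its group. Its log2 level there was 5.41, while the other 3 penicillin mice lay between 5.26 and 5.28, so the gap to the nearest mouse was 0.911 of the group's range. The penicillin group was examined in this way for 30 genes and 3 class means, and 1 of these 33 stood out, where chance gives about 1 in 20. The control group has too few mice for the same check. Col9a3 had an identical value in 3 arrays, at 5.26 in control replicate 2 and penicillin replicates 2 and 4. The gap therefore rests in part on repeated values.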

How the results depend on the processing

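No collagen had an adjusted p under 0.05 in limma in any alternative run, and none was under 0.1 in the setting reported. With array quality weights 3 collagens were under 0.1 (Col9a3, Col9a1 and Col15a1), where 15.4% of all genes were. At an unadjusted p under 0.05, 5 collagens were counted with array quality weights (26.6% of all genes), 1 with arrays centred on their medians (12.1%), 1 of 42 with no filter (9.46%) and 2 without control replicate 3 and penicillin replicate 3 (10.5%). Leaving out 1 array gave 0 to 2 (7.23% to 14.6% of all genes). The fibrillar median was 0.20 without control replicate 3 and penicillin replicate 3, and -0.08 to 0.09 with 1 array left out. The type IV and other medians then ranged from -0.13 to 0.01 and from -0.05 to 0.05. With the filter at the 50th percentile the type IV median was -0.17, but only Col4a1 and Col4a2 passed that filter. With array quality weights 3 of 87 pathway genes were called (3.45%), where 5.67% of all genes were. These were P3h2 at -0.40, Bmp1 at 0.46 and Mia2 at 0.44, the last with a control mean under the filter.

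The sign changed in at least 1 setting for 21 of the 30 tested collagens and 3 of 21 pathway genes named, however small the value, and the cause was not tested. With array quality weights the difference was 0.03 for Col14a1, 0.08 for Col1a2, 0.02 for Col25a1, 0.18 for Col3a1, 0.08 for Col5a2, 0.07 for Col6a3 and 0.01 for Col7a1. With arrays centred on their medians it was 0.05 for Col12a1, 0.02 for Col13a1, 0.04 for Col25a1, 0.03 for Col27a1, 0.01 for Col3a1, 0.03 for Col5a2, 0.04 for Col6a3 and 0.04 for Col7a1. Quantile normalisation gave 0.06 for Col12a1, 0.01 for Col13a1, 0.04 for Col25a1, 0.03 for Col27a1, 0.01 for Col5a2, 0.01 for Col6a3 and 0.00 for Col7a1. The mean of probe sets gave 0.03 for Col20a1, 0.01 for Col25a1, 0.02 for Col27a1, 0.03 for Col3a1, 0.02 for Col5a1 and -0.01 for Col6a2. Without control replicate 3 and penicillin replicate 3 it was 0.01 for Col12a1, 0.05 for Col13a1, 0.17 for Col14a1, 0.20 for Col1a2, 0.02 for Col25a1, 0.26 for Col3a1, 0.01 for Col4a2, 0.09 for Col5a1, 0.13 for Col5a2, 0.04 for Col6a1, 0.16 for Col6a3, 0.02 for Col7a1, 0.02 for Ltbp3, 0.09 for Pcolce2 and 0.03 for Timp2. Values that kept their sign there were 0.29 for Col15a1, 0.11 for Col18a1, 0.21 for Col1a1, 0.48 for Col5a3, 0.22 for Col6a2, 0.36 for Col4a5 and -0.23 for Col20a1.

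With 1 array left out, the difference ranged from -0.10 to 0.13 for Col12a1, -0.09 to 0.05 for Col13a1, -0.24 to 0.02 for Col14a1, -0.11 to 0.20 for Col15a1, -0.03 to 0.06 for Col18a1, -0.01 to 0.15 for Col1a1, -0.15 to 0.08 for Col1a2, -0.16 to 0.07 for Col20a1, -0.03 to 0.02 for Col25a1, -0.06 to 0.01 for Col27a1, -0.13 to 0.13 for Col3a1, -0.21 to -0.06 for Col4a2, -0.11 to 0.27 for Col4a5, -0.17 to 0.01 for Col5a1, -0.08 to 0.09 for Col5a2, -0.01 to 0.45 for Col5a3, -0.17 to -0.03 for Col6a1, -0.07 to 0.13 for Col6a2, -0.10 to 0.10 for Col6a3, -0.07 to 0.10 for Col6a4, -0.03 to 0.02 for Col7a1, -0.38 to -0.09 for Ltbp3, -0.57 to -0.08 for Pcolce2 and -0.33 to -0.06 for Timp2.

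Control and penicillin mice share replicate numbers only as names. Their deviations correlated at -0.164, 0.00297 and -0.416, and no control mouse correlated best with its own number. With a replicate block, which leaves out penicillin replicate 4, 0 collagens were called and 0 had an unadjusted p under 0.05, and the class medians were 0.00, -0.08 and -0.01 for fibrillar, type IV and other collagens. Under the block Col25a1 was at 0.00, Col27a1 at 0.01 and Col4a5 at -0.03.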

Other observations

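Not every collagen was low in penicillin replicate 3. Col9a1, Col9a3 and Col22a1 were highest in that mouse, at 4.79, 5.41 and 4.93. Under the filter, Col10a1, Col19a1 and Col24a1 were highest there too, at 4.70, 4.62 and 3.20. The means of Col9a1 and Col22a1, 4.70 and 4.73, were just above the filter. Other probe sets of Col22a1, under the filter, were lowest in that mouse, at 3.67 and 3.44. That of Col9a1 was highest in it, at 3.82.

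Probe sets of a gene did not always share a direction. Of 16 tested collagens with more than 1 probe set above the filter, 8 had the same sign in each at 2 decimals. A difference that rounded to 0 was counted as unlike, as in Col12a1, Col5a2 and Col23a1, so 8 is a lower bound. The second probe set of Col3a1, at a mean of 8.15, differed by 0.10 against -0.04 for the first, and the probe sets of Col5a1 differed by -0.10, 0.01 and 0.13. Both probe sets of Col1a1, of Col1a2, of Col3a1 and of Col4a1 above the filter were lowest in penicillin replicate 3.

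Some values were identical between arrays to 6 decimals. This was so in at least 3 arrays for 5 of 30 tested collagens (16.7%) and for 16.4% of all genes tested. The 5 were Col7a1, Col9a1, Col9a3, Col13a1 and Col27a1.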
